A study of Rattus norvegicus with 12 samples.

Results

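The nuclear genes that encode subunits of the oxidative phosphorylation complexes were examined in whole rat mammary glands. Members were the rows of the count table whose rat symbol names a subunit of complex I (Nduf genes), complex II (Sdh), complex III (Cyc1 and Uqcr), complex IV (Cox4 to Cox8, with Ndufa4) or complex V (Atp5), without pseudogenes and provisional names. This gave 79 of the 16511 genes, of which 33 belong to complex I, 4 to complex II, 9 to complex III, 17 to complex IV and 16 to complex V. A further 32 coding genes with such names in the RefSeq table were not among the rows analysed here, among them Cox7a1, Cox7b2 and Ndufa4l2. The libraries came from snap-frozen mammary glands of rat offspring at postnatal day 21, each gland from a separate litter. The 6 HFB libraries were from offspring exposed before birth to a high fat butter diet, and the 6 control (CTL) libraries from offspring of the AIN diet group. The exposure window could not be settled, because the deposited description ends the diets after the day of sampling and also states that pups received only AIN after birth. Strain and sex are not given in the labels. Libraries are named by diet and number, which are 1 to 6 for HFB and 7 to 11 and 14 for control.

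Complexes I to IV pass electrons from NADH and succinate to oxygen and build a proton gradient across the inner mitochondrial membrane, and complex V uses that gradient to make ATP. Most of their subunits are encoded in the nucleus, and a few subunits of complex IV exist as isoforms that differ between tissues. The gland of a young rat is a small epithelial tree in a large adipose pad, close to skeletal muscle, so that adipocytes, epithelium, blood cells, lymph node tissue and muscle can all contribute transcripts.

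The total count per library lay between 2320267 and 2760871 with HFB (median 2660268) and between 2403464 and 2944680 in controls (median 2537563.5). Levels are given as CPM, the counts of a gene scaled to a common library size with TMM factors. At this depth 3 counts, used as the detection limit, equal 1.02 to 1.29 CPM before TMM scaling, and this limit covers counting error only. CPM is not corrected for transcript length, so levels are compared between libraries, and a gene given as the highest of a list is so on the CPM scale alone. In bulk tissue, fewer cells of a type and less RNA per cell cannot be told apart.

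All 5 complexes were transcribed in every gland. Members took 2.91% ± 0.33 of counts with HFB (SD, n = 6, range 2.47% to 3.32%) and 2.60% ± 0.25 in controls (SD, n = 6, range 2.35% to 3.03%). Over the 78 members that passed the filter on low counts, mean CPM across the 12 libraries ranged from 12.1 to 3228, with a median of 270. The only member that did not pass was Cox8c, a complex IV isoform known from testis, with 1 count in all libraries together, in HFB 2. Coefficients of variation across libraries had a median of 22.2%. Cox7a2l, which takes part in the assembly of supercomplexes, varied least (9.62%). Cox4i2 (136%), Cox6a2 (97.7%), Cox8b (86.6%) and Cox6b2 (86.6%), all isoforms of complex IV, varied most among members that passed.

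Before the diets are compared, it has to be stated that libraries HFB 6 and control 14 stood apart from the other 10. Their white adipocyte scores, the mean log2 CPM of 14 adipocyte markers, were 9.30 and 9.10, against 10.55 to 10.86 in the remaining libraries. Summed CPM of these markers was 25620 in HFB 6 and 19820 in control 14. In the HFB group this sum had a lowest value of 25620, a median of 47440 and a highest value of 50300, and in controls these were 19820, 44300 and 52260. Fabp4, the fatty acid binding protein of adipocytes, had the highest mean CPM of the list (19490), and none of its genes was at 0 in any library. Lymphoid markers, of which 13 of 14 were in the table, summed to 1471 CPM in HFB 6 and 1627 CPM in control 14. They also reached 571 CPM in HFB 1 and 268 CPM in HFB 2, whose adipocyte scores were 10.55 and 10.75. Their medians were 165 with HFB and 73.4 in controls, and their lowest values 46.9 and 36.4. None of these markers was at 0 in all libraries, but 8 of the 13 were at 0 in at least 1. Ptprc, the pan-leukocyte phosphatase CD45, had the highest mean CPM of that list (78.6). The member counts and medians, the calls on the scores and some gene fold changes are given with and without HFB 6 and control 14 below.

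Diet was the comparison the design was made for. No member was called between HFB and CTL by edgeR's quasi-likelihood test at an adjusted p under 0.05, and neither was any of the 9382 genes tested (0%). DESeq2 and limma voom also called 0 genes. The values nevertheless leaned to 1 side: 77 of the 78 members tested had a log2 fold change above 0, as did 4693 of all 9382 genes tested. The members were measured in the same libraries, so they are not independent of each other and do not count as replicates of the diets. The member median was 0.28 on the log2 scale (a ratio of 1.21), and the median over all genes tested was 0.0002. With an unadjusted p under 0.05 there were 13 members (16.7%), all higher with HFB, where 122 genes were higher at that threshold among all tested (1.3%). In either direction the share over all genes was 2.34%. DESeq2 gave 26 such members (33.3%), where 2.89% of all genes passed. Limma voom gave 12 (15.4%), where 6.67% of all genes passed. The groups overlapped in every member, while 0.139% of all genes tested did not overlap.

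The count at an unadjusted p depended on single libraries. It was 21 without HFB 1, 20 without HFB 2, 5 without HFB 3, 40 without HFB 4, 4 without HFB 5, 7 without control 7 and 33 without control 8. The share over all genes tested moved as well, to 3.99%, 2.36%, 1.77%, 4.12%, 1.42%, 1.49% and 2.85% in the same order. Without control 14 there were 14 members (17.9%), but the share over all genes was 6.2%. Without HFB 6 and control 14 there were 8 members (10.3%, against 4.59% of all genes) and the member median was 0.25. Without HFB 5 as well there was 1 member (1.28%), below the 5.37% of all genes, and the median was 0.19. With the white adipocyte score as a covariate there were 35 members (44.9%, against 6.64% of all genes) and the median was 0.28. The number of members above 0 stayed between 73 and 78 over the 21 alternatives.

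**Figure D1:**
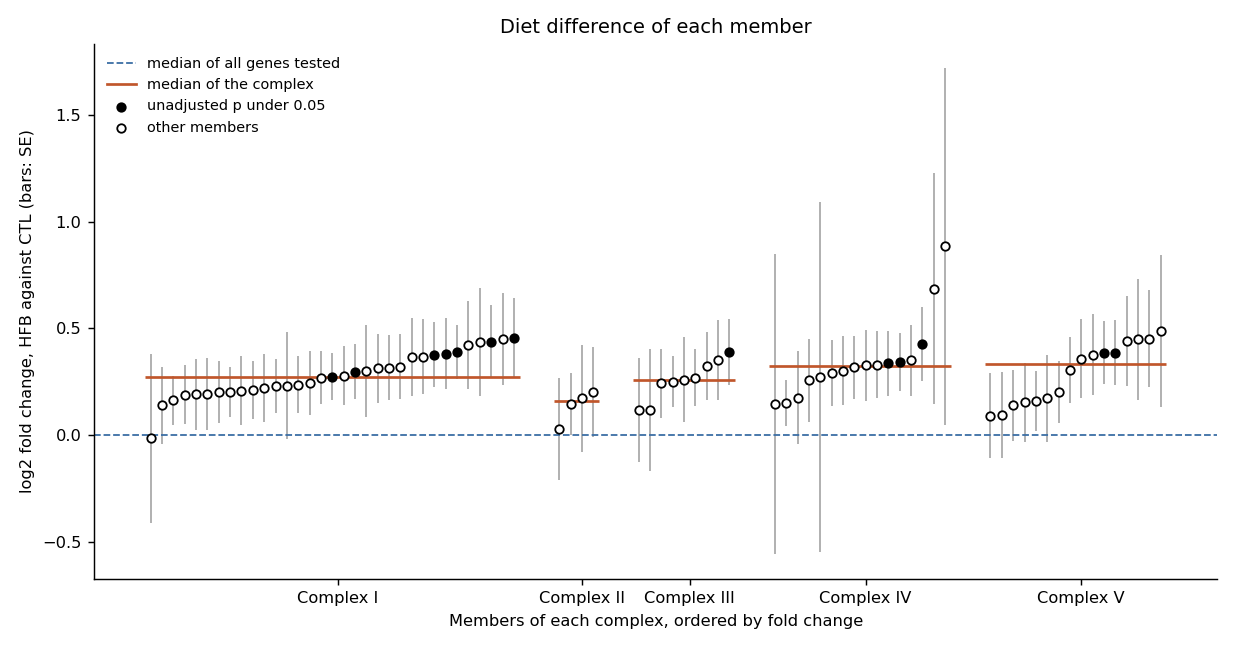
Log2 fold change of each of the 78 members tested, HFB against CTL (y axis, bars are SE), ordered within complexes I to V (x axis). Filled points have an unadjusted p under 0.05, red lines are medians of the complexes, and the dashed line is the median of all genes tested. The single point below 0 is Ndufs1 at -0.01, and the widest bars belong to complex IV isoforms.

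Summed over complexes, the levels showed the same lean and the same overlap. The 33 genes of complex I summed to 5941, 7626 and 8711 CPM with HFB (lowest, median and highest) and 5321, 6103 and 7727 CPM in controls. Complex II summed to 824, 1612 and 1932 CPM with HFB and 788, 1407 and 1740 CPM in controls. Complex III summed to 2799, 3306 and 4022 CPM with HFB and 2242, 2700 and 3449 CPM in controls. Control 8 lay within the HFB range in each of these sums, and HFB 4 lay within the control range. For complex IV the sums were 5413, 6898 and 8730 CPM with HFB and 4772, 5576 and 7278 CPM in controls. Complex V summed to 8556, 10980 and 11690 CPM with HFB and 7275, 9001 and 11270 CPM in controls. Ratios of the group means were 1.21, 1.11, 1.2, 1.24 and 1.17 for complexes I to V. Median log2 fold changes of members were 0.27, 0.16, 0.26, 0.32 and 0.33 in the same order.

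**Figure D2:**
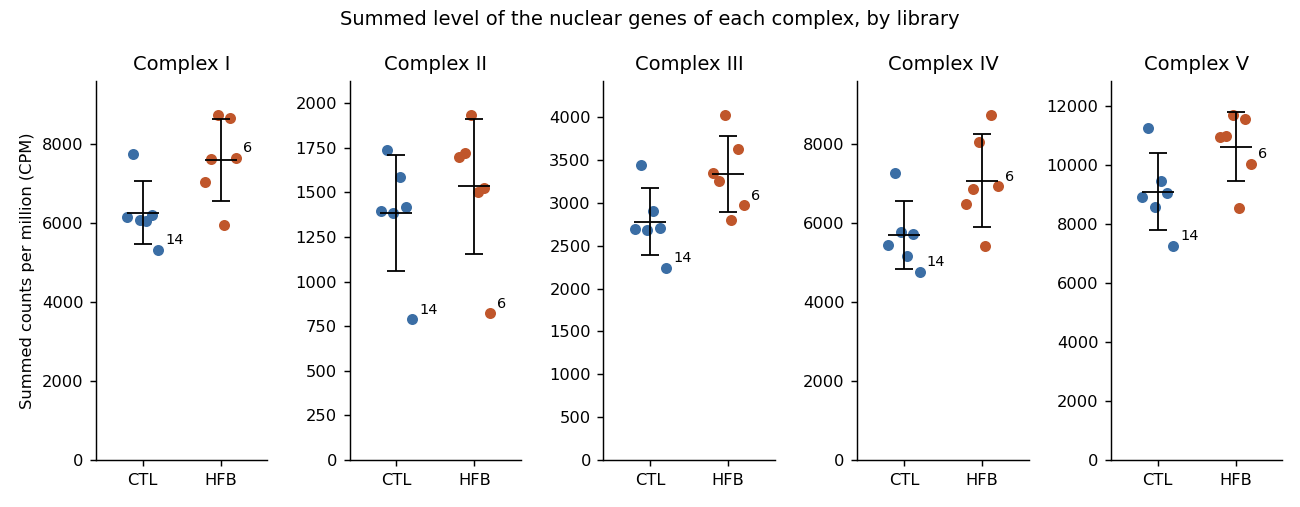
Summed CPM of the member genes of each complex (y axis, from 0) in the 6 CTL and 6 HFB libraries, with bars for the mean and SD. HFB 6 and control 14 are marked by number and are the lowest libraries of their groups for complex II, at 824 and 788 CPM, and the groups overlap for every complex.

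The 5 members with the smallest p between the diets came from 3 complexes. Ndufb8, an accessory subunit in the membrane arm of complex I, had 290, 391 and 428 CPM with HFB (lowest, median and highest) and 249, 283 and 346 CPM in controls. Its log2 fold change was 0.39 ± 0.13 (SE; edgeR, adjusted p = 0.9993). All 6 HFB libraries lay above the control median, but HFB 4, at 290 CPM, was close to it. Ndufa7, another accessory subunit of complex I, had 90.5, 134 and 188 CPM with HFB and 90.0, 99.1 and 106 CPM in controls, with a log2 fold change of 0.44 ± 0.17 (SE). Cox5a, a nuclear subunit of complex IV, had 314, 369 and 454 CPM with HFB and 264, 285 and 392 CPM in controls, with a log2 fold change of 0.34 ± 0.14 (SE). The control value of 392 was that of control 8 and stood above the other controls, which reached 290 CPM. Atp5mc3, which encodes subunit c of the proton-carrying ring of complex V, had 741, 1031 and 1142 CPM with HFB and 607, 782 and 969 CPM in controls. Atp5mg, which encodes a membrane subunit of complex V, had 429, 547 and 640 CPM with HFB and 353, 384 and 527 CPM in controls. Their log2 fold changes were 0.39 ± 0.15 for each (SE). The adjusted p of all 5 was 0.9993 in edgeR's test.

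Other genes of the pathway were summarised from fixed lists. Of 37 assembly factors of the complexes, 24 had a log2 fold change above 0, with a median of 0.09, and 3 had an unadjusted p under 0.05. Uqcc3, an assembly factor of complex III, had the smallest p, with a log2 fold change of 0.31 ± 0.12 (SE), and Coa5 had the highest mean CPM (286). Of 17 tested genes of the tricarboxylic acid cycle, which supplies electrons to the chain, 13 were above 0, with a median of 0.05, and 0 had an unadjusted p under 0.05. Mdh2 had the smallest p of these, with a log2 fold change of 0.27 ± 0.15 (SE). Of 11 tested regulators of mitochondrial biogenesis, 3 were above 0, with a median of -0.04, and 0 had an unadjusted p under 0.05. Tfb1m had the smallest p there, with a log2 fold change of -0.38 ± 0.23 (SE), and Esrra the highest mean CPM (66.7). None of the 13 genes encoded in mitochondrial DNA was among the rows analysed here. No difference between these lists was tested.

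Gene groups chosen after their values were seen gave a wider frame. All 77 tested genes of the cytosolic ribosome had a log2 fold change above 0, with a median of 0.28, and 2 had an unadjusted p under 0.05. They summed to 105800 CPM in HFB 6 (median of the HFB group 55150) and to 75800 CPM in control 14 (median of controls 50400), the highest libraries of their groups. On the white adipocyte score 63 of the 77 were called with a negative slope, as were 26.5% of all genes tested. The part of these libraries in the fold changes of ribosomal genes was not tested. For the mitochondrial ribosome the number above 0, the median and the number with an unadjusted p under 0.05 were 62 of 67, 0.19 and 11, and for the proteasome 34 of 37, 0.17 and 0. Among the other 1681 genes with a mean of 100 CPM or more, 66.0% were above 0, with a median of 0.08, and 2.8% had an unadjusted p under 0.05.

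**Figure D3:**
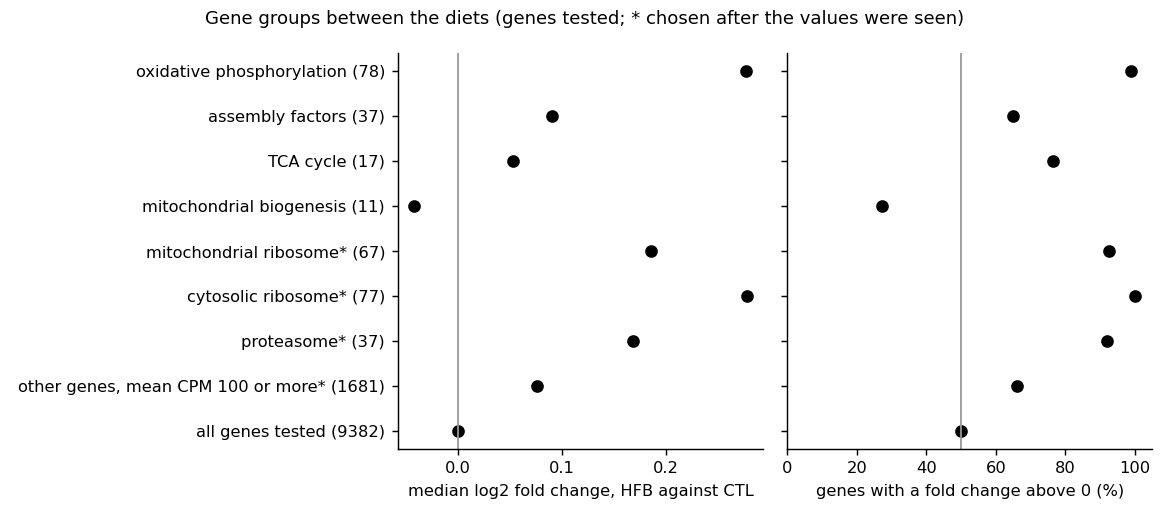
Median log2 fold change, HFB against CTL (left), and percentage of genes above 0 (right) for gene groups, with the number tested in brackets. The oxidative phosphorylation members and the cytosolic ribosome lie together at a median of 0.28, and all genes tested lie at a median of 0.0002.

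Markers of other tissues were measured in the same libraries. With the skeletal muscle score, described below, as a covariate, 76 members were above 0, the median was 0.27, and 11 (14.1%) had an unadjusted p under 0.05, against 2.09% of all genes. The parts of erythroid, epithelial, macrophage and lymphoid markers in the lean of the members were not tested. Skeletal muscle markers were in the table for 24 of 28 genes, none at 0 in any library. With the most abundant of them, Car3, left out because adipocytes also express it, they summed to 614, 3673 and 10760 CPM with HFB (lowest, median and highest) and 334, 2317 and 9412 CPM in controls. Of the 24 genes 23 had a log2 fold change above 0, with a median of 0.44. Pvalb, the calcium buffer of fast fibres, had the smallest p of the list, with a log2 fold change of 0.90 ± 0.83 (SE). Erythroid markers were higher with HFB in 5 of 5 genes tested, with a median log2 fold change of 0.93, and summed to 9314, 26780 and 83510 CPM with HFB and 7919, 12000 and 50770 CPM in controls. Hbb had the highest mean CPM (9839), and Hba-a2 the smallest p, with a log2 fold change of 1.00 ± 0.56 (SE). Of 11 epithelial markers tested, 0 were above 0, with a median of -0.28. Their sums were 128, 334 and 752 CPM with HFB and 209, 483 and 775 CPM in controls. Krt8 had the highest mean CPM (112), Epcam the smallest p (log2 fold change -0.63 ± 0.39, SE), and Cldn3 was at 0 in all libraries. Macrophage markers summed to 850, 1112 and 1728 CPM with HFB and 777, 892 and 1369 CPM in controls. Of these 8 genes 6 were above 0, with a median of 0.16. Lyz2 had the highest mean CPM (409) and C1qb the smallest p (log2 fold change 0.59 ± 0.20, SE). White adipocyte markers were above 0 in 9 of 14 genes, with a median of 0.03, and Cfd had the smallest p (log2 fold change 0.20 ± 0.28, SE). All 6 lymphoid genes tested were above 0, with a median of 0.32, and Cd8a had the smallest p (log2 fold change 1.01 ± 1.19, SE). No gene of these lists was called between the diets.

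Among the isoforms of complex IV, Cox6a2 and Cox8b rose with muscle transcripts. Cox6a2 is the form of subunit VIa known from heart and skeletal muscle, and Cox6a1 is its widely expressed partner. Cox8b is a form of subunit VIII known from heart, skeletal muscle and brown fat, and Cox8a is the widely expressed form. Cox6a2 had 4.33, 36.6 and 107 CPM with HFB (lowest, median and highest) and 0.735, 20.2 and 69.8 CPM in controls. The lowest value, in control 10, rested on 2 counts and lay under the detection limit. Cox8b had 10.4, 40.0 and 104 CPM with HFB and 4.78, 22.2 and 106 CPM in controls. Both were low in HFB 1, HFB 2 and control 10 and high in HFB 3 and control 11, Cox6a2 was highest in HFB 6, and the diets overlapped for both.

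The skeletal muscle score, the mean log2 CPM of the 24 muscle markers, ran from 3.82 in control 10 to 7.90 in control 11. In a model with diet, Cox6a2 rose by 1.29 ± 0.09 log2 units per unit of the score (SE; edgeR, adjusted p = 4.51e-06) and Cox8b by 0.98 ± 0.10 (SE; edgeR, adjusted p = 6.72e-05). These were the 2 members called out of 78 tested, where 76 of 9382 genes were called (0.81%), all with a positive slope. The calls include 22 of the 24 markers that make up the score, so they are partly built in. Without HFB 6 and control 14 the 2 members were called again, with slopes of 1.24 and 1.03. Without control 10 and HFB 1, the libraries farthest from the median score, the slopes were 1.23 and 1.00. Cox6a2 could not be fitted when 10 counts were required in every library, which left Cox8b as the single call.

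**Figure D4:**
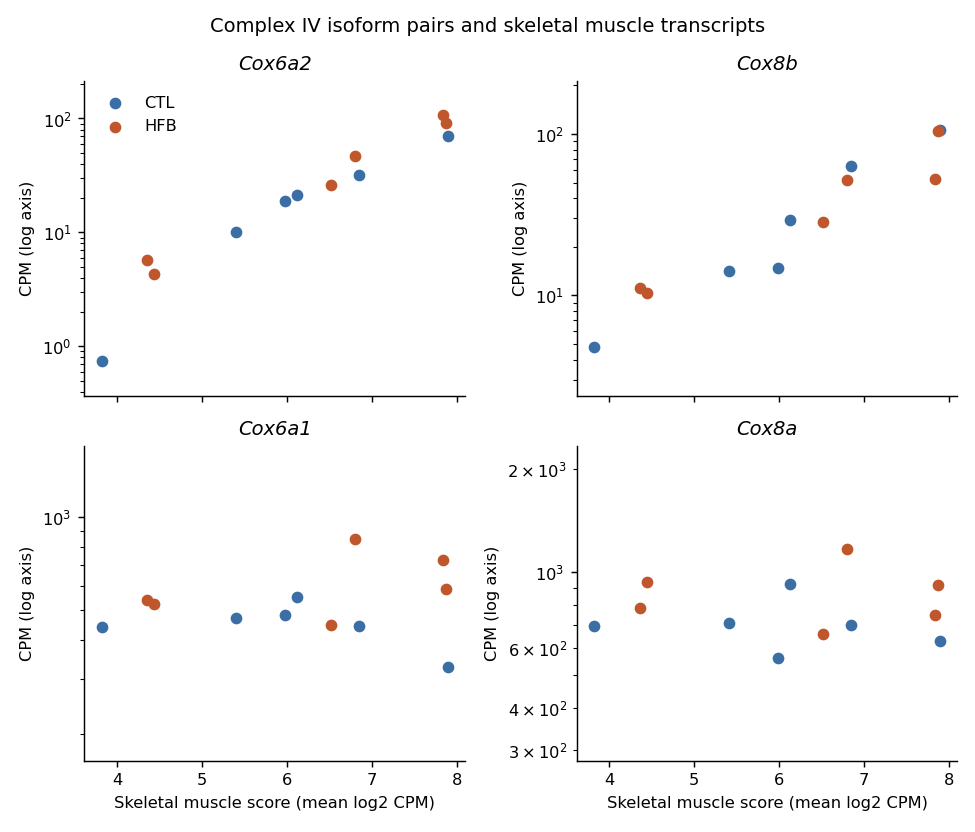
CPM (log axis) of isoform pairs of complex IV against the skeletal muscle score (mean log2 CPM of 24 muscle markers) in 12 libraries, coloured by diet. Cox6a2 and Cox8b climb with the score from 0.735 and 4.78 CPM in control 10, while Cox6a1 and Cox8a stay between 327 and 846 CPM and between 559 and 1169 CPM.

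Cox6a1 had 448, 563 and 846 CPM with HFB (lowest, median and highest) and 327, 459 and 553 CPM in controls, and its muscle slope was 0.03 (edgeR, adjusted p = 0.9011). Cox8a had 658, 850 and 1169 CPM with HFB and 559, 697 and 922 CPM in controls, with a muscle slope of -0.0011 (edgeR, adjusted p = 0.9975). Neither slope passed the threshold, and the difference between the partners was not tested. Over all members the median slope was 0.05, and over all genes tested it was 0.0069. Of the muscle lists, 7 of 7 slow fibre genes and 7 of 7 fast fibre genes tested were called with the score, but most of them also enter it. Since Cox8b is also known from brown fat, brown fat genes were read beside it. Ucp1, the uncoupling protein of brown fat, had 5.08 to 113 CPM with HFB and 8.65 to 169 CPM in controls, highest in HFB 3 and control 9. Its muscle slope was 0.59 (edgeR, adjusted p = 0.8164). Of the 10 listed brown fat genes, Cox8b itself among them, 8 were in the table, and Cidea had the highest mean CPM (171). None was at 0 in all libraries, but 4 were at 0 in at least 1, among them Dio2 and Elovl3, with 11 and 12 counts in all. The part of brown fat in the Cox8b values was not tested.

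Promoters are shown for the isoforms called with the muscle score, Cox6a2 and Cox8b, and for Cox8a, the widely expressed partner of Cox8b. RefSeq held 300-base promoters (250 bases before to 50 after the start, build GRCr8) for 68 of the 79 members. Capitals mark the motif found by a search on both strands, and all sequences are given 5′ to 3′ on the strand of the gene. The Cox6a2 promoter (chr1:192219667-192219966, minus strand) held a match to the MEF2 motif, named for a factor of muscle genes. The Cox8b promoter (chr1:205408224-205408523, minus strand) held none of the motifs searched. The Cox8a promoter (chr1:213833574-213833873, minus strand) held the ETS motif CCGGAAGT at a pair of places, on the opposite strand.
Cox6a2: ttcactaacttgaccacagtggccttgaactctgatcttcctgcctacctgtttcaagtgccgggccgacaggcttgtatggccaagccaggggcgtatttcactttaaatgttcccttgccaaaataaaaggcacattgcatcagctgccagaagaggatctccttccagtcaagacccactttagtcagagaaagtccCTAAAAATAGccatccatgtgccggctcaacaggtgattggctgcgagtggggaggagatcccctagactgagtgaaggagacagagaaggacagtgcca
Cox8b: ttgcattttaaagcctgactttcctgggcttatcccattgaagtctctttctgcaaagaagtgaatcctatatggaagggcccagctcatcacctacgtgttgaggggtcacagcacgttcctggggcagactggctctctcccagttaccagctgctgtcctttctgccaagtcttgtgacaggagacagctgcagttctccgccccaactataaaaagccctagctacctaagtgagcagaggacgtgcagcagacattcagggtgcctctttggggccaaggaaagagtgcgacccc
Cox8a: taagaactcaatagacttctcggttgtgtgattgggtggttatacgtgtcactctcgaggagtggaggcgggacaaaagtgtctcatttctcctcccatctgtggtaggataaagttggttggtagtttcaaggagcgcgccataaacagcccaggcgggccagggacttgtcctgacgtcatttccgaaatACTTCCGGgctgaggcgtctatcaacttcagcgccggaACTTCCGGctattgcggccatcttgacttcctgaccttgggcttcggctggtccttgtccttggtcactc

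The MEF2 motif was in 1 of the 68 member promoters, that of Cox6a2, and in 2.5% of the 13024 promoters of table genes. The other motifs were chosen as those of factors known to act on nuclear genes of the respiratory chain. CCGGAAGT was in 7 member promoters (10.3%) and in 5.97% of all promoters. The NRF1 core CGCATGCG was in 7 member promoters (10.3%) and in 2.64% of all promoters. Of these 7, 5 were among the 15 promoters of complex V. The YY1 motif AAGATGGCG was in 8 member promoters (11.8%) and in 2.59% of all. Of these 8, 6 were among the 29 promoters of complex I. The ERR motif TCAAGGTCA was in 2 member promoters (2.94%), those of Atp5mc3 and Sdhd, and in 0.238% of all. A single pair of matches overlapped, both of the NRF1 core, in the Ndufa11 promoter. A match describes the letters of this window and does not show binding. Median GC content was 56.1% in member promoters and 57.7% in all. Among the genes named above, the Ndufb8 promoter (chr1:253362887-253363186, minus strand) held the YY1 motif close to its 3′ end. The promoter of Uqcrc1 (chr8:118467973-118468272, plus strand), a core subunit of complex III, held both the NRF1 core and the YY1 motif.
Ndufb8: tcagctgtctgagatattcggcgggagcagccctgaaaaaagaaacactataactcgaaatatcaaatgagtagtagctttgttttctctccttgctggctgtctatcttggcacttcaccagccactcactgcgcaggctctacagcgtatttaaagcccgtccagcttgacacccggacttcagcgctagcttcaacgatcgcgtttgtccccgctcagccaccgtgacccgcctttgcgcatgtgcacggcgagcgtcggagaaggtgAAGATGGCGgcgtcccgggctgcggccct
Uqcrc1: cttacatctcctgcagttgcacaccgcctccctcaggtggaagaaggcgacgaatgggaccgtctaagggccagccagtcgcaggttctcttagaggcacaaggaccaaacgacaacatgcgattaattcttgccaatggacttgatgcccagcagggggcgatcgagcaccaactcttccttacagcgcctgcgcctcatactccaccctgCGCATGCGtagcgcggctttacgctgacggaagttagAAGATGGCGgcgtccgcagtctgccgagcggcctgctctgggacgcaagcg

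Cox4i2 and Cox6b2 gave another pattern and were highest in HFB 6 and control 14 of their groups, while their common partners were highest in HFB 5 and control 8. Cox4i2 is the form of subunit IV known from lung and vascular pericytes, and Cox4i1 is the common form. Cox4i2 had 3.19, 5.73 and 57.0 CPM with HFB (lowest, median and highest) and 3.23, 7.01 and 38.1 CPM in controls. The high values were those of HFB 6 and control 14, and the other 10 libraries reached 8.58 CPM. Its log2 fold change was 0.27 ± 0.82 (SE; edgeR, adjusted p = 0.9993), and it was -0.28 without HFB 6 and control 14. Cox4i1 had 1123, 1441 and 1841 CPM with HFB and 948, 1114 and 1478 CPM in controls. Cox6b2, a form of subunit VIb known from testis, had 3.71, 8.35 and 40.3 CPM with HFB and 6.06, 8.27 and 16.3 CPM in controls. HFB 5 followed HFB 6 at 24.2 CPM. The log2 fold change of Cox6b2 was 0.69 ± 0.54 (SE), 0.31 without HFB 6 and control 14, and -0.32 without HFB 5 as well. Cox6b1, the common form, had 295, 461 and 582 CPM with HFB and 297, 352 and 457 CPM in controls.

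Among the genes for subunit c of complex V, Atp5mc1 had 83.1, 104 and 339 CPM with HFB (lowest, median and highest) and 78.7, 98.0 and 176 CPM in controls. Atp5mc2 had 249, 272 and 685 CPM with HFB and 227, 247 and 419 CPM in controls. HFB 6 and control 14 were the highest libraries of their groups for both genes, with HFB 5 next to HFB 6 at 189 and 503 CPM. Atp5mc3, described above, did not show this order. Cox7a2 (277 to 467 CPM with HFB, 238 to 401 in controls), Cox7a2l (300.4 to 374 and 273 to 345), Cox7b (283 to 509 and 197 to 424) and Ndufa4 (540 to 854 and 452 to 762) overlapped between the diets.

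Some core subunits showed the reverse order, and others, such as Ndufv1, did not. Ndufs1 carries iron-sulphur clusters in the arm of complex I that oxidises NADH. It had 31.8, 191 and 244 CPM with HFB (lowest, median and highest) and 72.0, 158 and 221 CPM in controls. The lowest values were those of HFB 6 and control 14, and HFB 5 followed at 97.3 CPM. Sdha, the flavoprotein of complex II, had 175, 415 and 439 CPM with HFB and 184, 362 and 447 CPM in controls, again lowest in HFB 6 and control 14. Sdhc (219 to 622 CPM with HFB, 211 to 551 in controls) and Sdhd (230 to 548 and 202 to 457), the membrane anchors of complex II, overlapped between the diets. Sdhb, the iron-sulphur subunit of complex II, had a median of 296 CPM with HFB and 260 CPM in controls. Uqcrfs1, the Rieske iron-sulphur protein of complex III, ran from 173 to 543 CPM with HFB and from 212 to 461 CPM in controls. Atp5f1a and Atp5f1b, the alpha and beta subunits of the catalytic head of complex V, ran from 601 to 1458 and from 2332 to 4006 CPM with HFB, and from 678 to 1199 and from 1892 to 4002 CPM in controls.

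The other defining subunits also overlapped between the diets. Ndufv1, which binds NADH, had 283, 362 and 386 CPM with HFB (lowest, median and highest) and 268, 283 and 307 CPM in controls. HFB 4 was level with the control median and the other HFB libraries lay above the controls, with a log2 fold change of 0.27 ± 0.11 (SE; edgeR, adjusted p = 0.9993). Ndufab1, the acyl carrier protein of complex I, ran from 72.9 to 224 CPM with HFB and from 73.0 to 186 CPM in controls. Cyc1, the haem subunit of complex III (368 to 567 CPM with HFB, 367 to 508 in controls), and Uqcrc1 (346 to 468 and 308 to 391) belong to complex III. Cox5b of complex IV ran from 263 to 450 and from 225 to 379 CPM, and Atp5if1, the inhibitor of complex V, from 54.5 to 102 and from 52.0 to 89.3 CPM. Ndufa10, an accessory subunit of complex I, ran from 416 to 609 CPM with HFB and from 308 to 630 CPM in controls. Ndufa8, another accessory subunit of complex I, ran from 88.4 to 134 and from 85.0 to 107, and Uqcr10 of complex III from 69.4 to 175 and from 68.2 to 138.

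**Figure D5:**
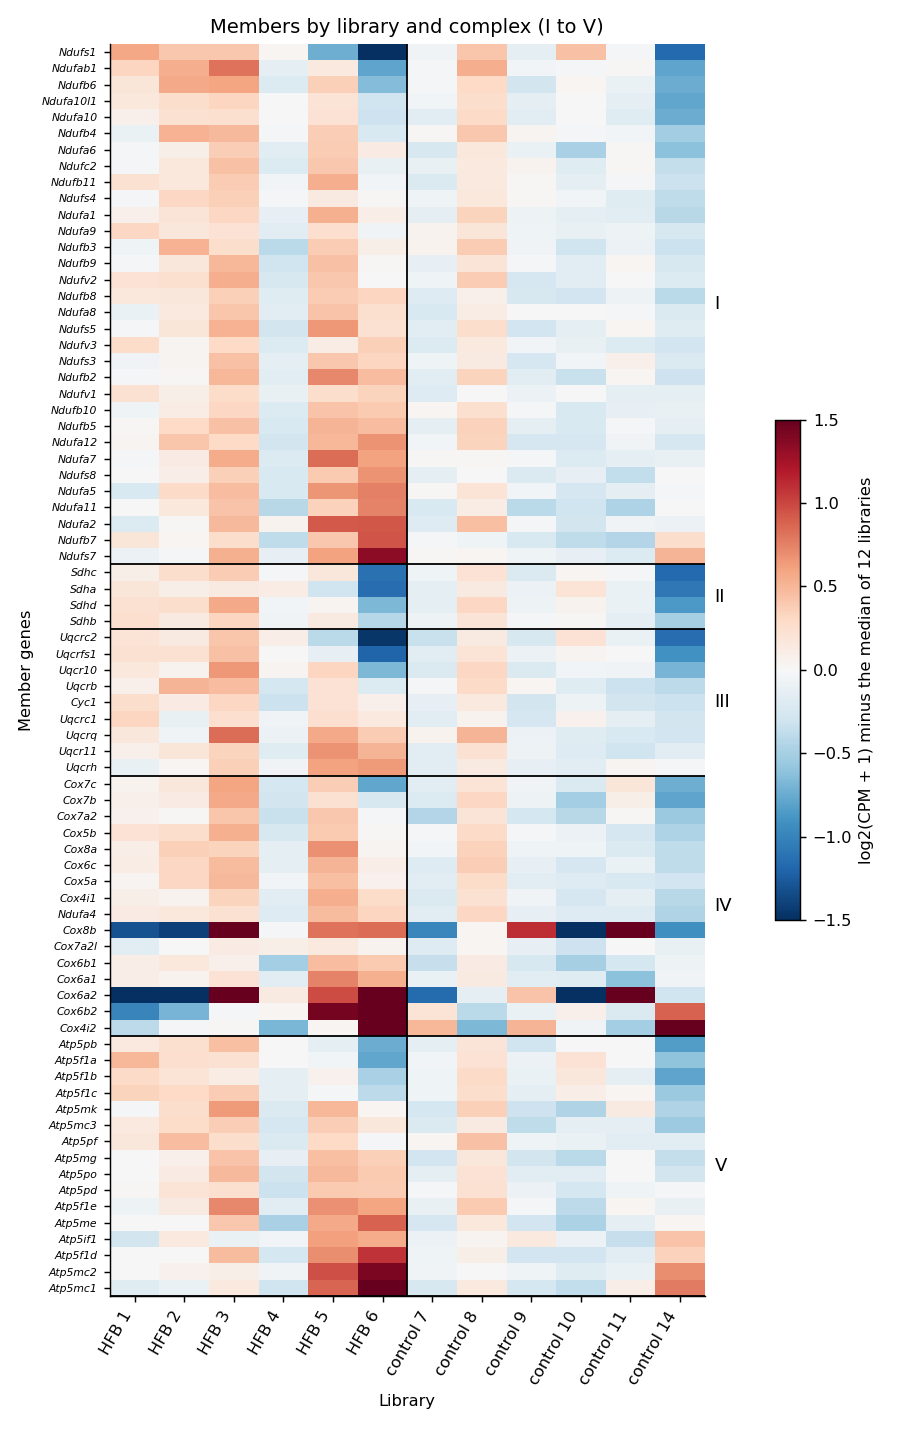
Log2(CPM + 1) of 77 of the 78 members tested (rows, by complex I to V) in the 12 libraries (columns), each minus its median over the libraries. HFB 6 and control 14 show low Ndufs1, Sdha, Sdhc and Uqcrfs1 beside high Cox4i2, Atp5mc1 and Atp5mc2, and Cox6a2 and Cox8b follow their own order.

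Counted over members, control 14 held the lowest value of the 12 libraries for 34 of 78, control 10 for 13 and HFB 4 for 10. The highest values lay in HFB 3 for 27 members, in HFB 5 for 22 and in HFB 6 for 17. HFB 6 also held the lowest value for 7 members. On the white adipocyte score, in a model with diet, 27 of 78 members were called, 19 with a positive slope and 8 with a negative slope, where 25.8% and 26.5% of all genes tested were called in these directions. The member shares were thus not above the background. Positive slopes included all 4 genes of complex II, and negative slopes included Cox4i2, Cox6b2, Atp5mc1 and Atp5mc2. The slope was largest for Ndufs1 at 1.13 ± 0.25 (SE; edgeR, adjusted p = 0.0023) and lowest for Cox4i2 at -2.08 ± 0.23 (SE; edgeR, adjusted p = 1.22e-05). Without HFB 6 and control 14, 0 members and 0 genes were called and the member median of the slope moved from 0.08 to -0.43. The relation thus rested on these libraries, which form a cluster of their own on the score. Sums of lymphoid (1471 and 1627 CPM), epithelial (752 and 775) and macrophage markers (1728 and 1369) were also highest of their groups in HFB 6 and control 14. The macrophage sum of control 14 was mostly Lyz2 (893 CPM). By the macrophage score, the mean log2 CPM of these markers, control 14 was the lowest of the 12 libraries (5.83). HFB 6 (6.59) lay below HFB 5 (6.73) on that score. On the adipocyte score 5 of 6 lymphoid and 3 of 11 epithelial genes tested were called with a negative slope, and 2 of 8 macrophage genes in each direction. The parts of these cell types and of adipocytes in the relation were not tested.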

How the data were processed

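The authors deposited raw counts of reads per gene, 1 column per library, for 12 rat mammary glands. Per the labels, RNA was extracted with a kit for lipid-rich tissue, and the processing notes name bcl2fastq, CASAVA 1.8, TopHat, DESeq and the build rn4. The counting program, annotation and use of strand are not given in the sources used here. Entrez identifiers were matched to the RefSeq gene table of GRCr8, which named 16351 of 16511 genes. Of the members, 43 have a named copy or pseudogene in that table, so their reads are uncertain. Ndufa10l1, which is named as a copy of Ndufa10, was kept among the members of complex I, and its reads are uncertain as well. The rows Cox6c-ps1 and Ndufs6-ps1 were left out as pseudogenes.

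The quasi-likelihood test of edgeR 4.0.16 (R 4.3.3; TMM factors, filterByExpr, Benjamini-Hochberg adjustment over all 9382 genes tested, threshold 0.05) was fitted on the diet and, with diet in the model, on the skeletal muscle and white adipocyte scores (mean log2 CPM, prior count 2). The tests were tried on simulated counts. Alternatives were voom with quality weights in limma 3.58.1, DESeq2 1.42.0, edgeR with the size factors of DESeq2, an unfiltered table, a minimum of 10 counts in each library, the muscle score as a covariate, the score without diet, and leaving out libraries. Chosen after seeing the data were leaving out HFB 6 and control 14, with or without HFB 5, the adipocyte score as a covariate and the muscle score without Car3. Members, lists and tests were chosen with earlier results of these data known.

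Genes are named by rule: defining subunits of each complex, isoforms that differ by tissue, the 5 smallest p between the diets, the highest and lowest mean CPM of each complex, members under 3 counts in all, and the largest muscle slopes among calls. Of each other list the gene with the highest CPM, that with the smallest p and those at 0 are named. In all, 2 genes of this rule are not reported here and are not counted among the groups of values examined for outlying libraries. Total counts lay between 2320267 and 2944680. No 2 libraries of a diet agreed within sampling noise (lowest chi-square per degree of freedom 6.69 over 30 pairs). Tables were summarised with pandas in Python.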

Additional observations from a re-analysis of the deposited data

Results flagged for a closer look

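A library far from the others of its diet was found in 14 of 98 groups of 6 values examined, where chance gives about 1 in 20 groups, or 4.9. The groups are not independent, since they share the same 12 libraries, and no explanation was tested.

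Most of these libraries were HFB 6 or control 14. Cox4i2 stood at 57.0 CPM in HFB 6, with the next HFB library at 5.86, and at 38.1 CPM in control 14, with the next control at 8.58. In control 14, Cox6b2 stood at 16.3 CPM, Atp5mc1 at 176 CPM and Atp5mc2 at 419 CPM, above next values of 9.76, 113 and 258. Low values were Sdha at 184 CPM and the complex II sum at 788 CPM in control 14, where the next libraries had 352 and 1387. The white adipocyte score was 9.30 in HFB 6 and 9.10 in control 14, and the lymphoid score was 6.54 in control 14, with the next control at 2.82.

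Control 8 was high for Cox5a (392 CPM, next 290), Ndufa4 (762 CPM, next 566) and the complex I sum (7727 CPM, next 6199). Control 9 had an erythroid score of 11.04, with the next control at 9.23.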

How the results depend on the processing

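No member was called between the diets under any of the 21 alternatives. The count of members at an unadjusted p under 0.05 was 13 in the fit as reported, 26 with DESeq2, 35 with the adipocyte score as a covariate, 8 without HFB 6 and control 14 and 1 without HFB 5 as well. The shares over all genes were 2.34%, 2.89%, 6.64%, 4.59% and 5.37% in the same order, the last above the 1.28% of members. Leaving out single libraries gave 4 to 40 members, with 1.42% to 6.2% of all genes, and medians of 0.24 to 0.36. The muscle score called 1 member where 10 counts were required in every library, which removed Cox6a2, and 2 otherwise. All 39 alternative slopes of Cox6a2 and Cox8b stayed positive and past the threshold. The adipocyte score called 0 members without its 2 farthest libraries, which are HFB 6 and control 14, and 14 to 30 without single libraries.

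Of 774 alternative fold changes of 37 named genes, 29 in 8 genes changed sign, and the cause was not tested. None of the 37 genes was called between the diets in the fit as reported, so no called value could change sign. With limma voom the genes that changed sign were Ndufs1 (0.15), Cox4i2 (-0.30) and Cox6b2 (-0.25). Cox4i2 was at -0.30 with the muscle score and -0.0385 with the adipocyte score as a covariate. Without HFB 6 and control 14, Ndufs1 was at 0.0504, Cox4i2 at -0.28 and Cox8b at -0.0823. Without HFB 5 as well, Ndufs1 was at 0.22, Atp5if1 at -0.0046, Cox4i2 at -0.35, Cox6b2 at -0.32 and Cox8b at -0.17. Leaving out single libraries, ranges were -0.17 to 0.20 for Ndufs1, -0.10 to 0.17 for Sdha, -0.0051 to 0.21 for Atp5f1a, -0.0057 to 0.17 for Atp5f1b, -1.22 to 1.24 for Cox4i2 and -0.33 to 0.77 for Cox8b. The signs of these genes between the diets are therefore unsettled.

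No paired analysis was made, because each gland came from a separate litter and the labels pair no HFB library with a control. Depth limits the rare isoforms: Cox8c had 1 count in all, and Cox6a2 2 counts in control 10.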

Other observations

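A row left out as a pseudogene, Ndufs6-ps1, held 2121 counts over the 12 libraries, between 49.1 and 88.7 CPM, while Ndufs6 itself was not among the rows analysed here. Cox6c-ps1, the other row left out, held 2 counts.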
